A study of Mus musculus with 10 samples.

Results

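The genes described here make and trim ribosomal RNA in the nucleolus, or form the RNA exosome, which degrades and trims RNA from its 3′ end. Affymetrix arrays measured them in whole embryonic mouse hearts, all female, at 13.5 days post coitum (dpc). The set was defined by gene symbol and holds the Nop, Utp, Rrp and Exosc genes, the Polr1 subunits, the Noc genes with an l suffix, and Imp3 and Imp4. It was chosen with earlier results of these data known, so its shares against all genes are not those of a set fixed in advance. It came to 47 of the 18193 genes with a probe set that carries a single gene symbol. For each gene the probe set with the highest mean signal over all arrays was used. Of the 47 genes, 5 encode subunits of RNA polymerase I, 3 belong to the core of small nucleolar ribonucleoproteins (snoRNPs), 20 act on the small ribosomal subunit, 9 on the large subunit, and 10 are exosome subunits.

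Hearts in which 1 copy of Hccs was deleted conditionally in the heart (labelled Hccs het KO) were compared with hearts of control littermates, in 5 pools of 4 to 5 hearts for each genotype and 1 array for each pool. The Hccs enzyme of mitochondria joins haem to c-type cytochromes. Its gene lies on the X chromosome, and through X inactivation some cells of a heterozygous female keep the enzyme and others lose it. Each pool mixed several such hearts. The Cre driver of the knockout, its cell types and the genotype of the controls at the floxed allele are not given in the sources used here.

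A ribosome begins in the nucleolus, where RNA polymerase I copies the repeated ribosomal DNA into a long precursor RNA. The small subunit processome, a very large assembly built around the U3 snoRNP, folds and cleaves the part that becomes 18S RNA. Other factors shape the precursor of the large subunit, snoRNPs guide chemical modification of the RNA, and the exosome trims or destroys what is left over. The demand for new ribosomes is high in growing and dividing tissue such as the embryonic heart.

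Sequences just upstream of 4 of the genes are shown as examples. Polr1e and Utp3 rose in knockout hearts, and Rrp15 was higher in every knockout pool without passing the test. Exosc2 had a log2 change of -0.0063. Each runs 5′ to 3′ on the gene's own strand, from 250 bases before to 50 bases after the start, and comes from RefSeq (GRCm38.p6). Capitals mark matches, on either strand, to CCGGAAG (the core bound by ETS factors) or the NRF1 motif (GCGCA and GCGC with any 1 base between them).
Polr1e (chr4:45018359-45018658, plus strand): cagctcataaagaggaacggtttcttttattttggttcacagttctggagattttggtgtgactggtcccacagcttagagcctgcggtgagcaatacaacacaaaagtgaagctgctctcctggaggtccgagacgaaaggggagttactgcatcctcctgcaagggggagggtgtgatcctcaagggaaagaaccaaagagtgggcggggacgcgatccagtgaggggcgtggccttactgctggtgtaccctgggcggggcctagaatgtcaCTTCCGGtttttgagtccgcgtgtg
Utp3 (chr5:88554212-88554511, plus strand): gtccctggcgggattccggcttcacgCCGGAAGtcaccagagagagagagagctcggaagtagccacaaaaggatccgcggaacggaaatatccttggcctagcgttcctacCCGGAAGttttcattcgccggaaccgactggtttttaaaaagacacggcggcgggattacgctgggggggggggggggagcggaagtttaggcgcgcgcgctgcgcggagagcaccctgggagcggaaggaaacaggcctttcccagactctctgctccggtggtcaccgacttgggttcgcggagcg
Rrp15 (chr1:186749309-186749608, minus strand): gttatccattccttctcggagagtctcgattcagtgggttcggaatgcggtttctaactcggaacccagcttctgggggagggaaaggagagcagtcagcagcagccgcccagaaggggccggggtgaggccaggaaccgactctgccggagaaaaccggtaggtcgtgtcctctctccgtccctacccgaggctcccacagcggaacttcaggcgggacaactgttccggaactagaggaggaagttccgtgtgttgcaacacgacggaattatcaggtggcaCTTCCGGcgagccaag
Exosc2 (chr2:31670465-31670764, plus strand): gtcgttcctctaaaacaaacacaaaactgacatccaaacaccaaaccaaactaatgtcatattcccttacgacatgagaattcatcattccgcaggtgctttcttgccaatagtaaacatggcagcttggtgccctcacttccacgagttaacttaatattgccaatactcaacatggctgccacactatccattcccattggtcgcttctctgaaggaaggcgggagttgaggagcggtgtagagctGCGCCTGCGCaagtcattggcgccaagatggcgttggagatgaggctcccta

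Of the 47 genes 40 had such a window in the RefSeq table, and Rrp12, Utp23 and Nop53 are only named here. The ETS core was found in 30.0% of the 40 genes (12), against 15.0% of the 14428 array genes with a window. CACGTG, the E-box bound by Myc family factors, was found in 22.5% (9), against 10.2% of array genes. The NRF1 motif was found in 20.0% (8), against 8.59%. TGATGNAA, the element bound by C/EBP-ATF pairs, was found in 2.50% (1, Nop14), against 3.24%. All motifs were searched on both strands, and none overlapped another in the 4 windows shown. In these windows Polr1e and Rrp15 each held 1 ETS core and Utp3 held 2, while Exosc2 held 1 NRF1 motif. The median GC content was 57.7% for the windows of the set and 58.3% for those of all array genes. The ETS core was also found in the windows of Nop2 and Polr1c, which had log2 changes of 0.052 and 0.015. Whether a motif goes with the change of a gene was not tested. A match describes the letters of the window and does not show that a factor binds there.

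The arrays held cardiac muscle RNA as labelled. Cardiac actin Actc1 had log2 signals from 16.001 to 16.113 in knockout pools and from 16.151 to 16.237 in control pools. Hccs itself lay between 10.39 and 10.90 in knockout pools and between 11.11 and 11.31 in control pools (log2 change -0.55, SE 0.0903, limma adjusted p = 0.0225). Of 12 cardiomyocyte markers 3 fell and none rose, and their summed linear signal was lower in all knockout pools (361079 to 409033) than in control pools (429764 to 457548). Of 8 epicardial and mesenchymal markers 1 rose: Tcf21, at 12.06 ± 0.08 in knockout pools and 11.45 ± 0.28 in control pools without overlap (SD, n = 5 each, log2 change 0.61, limma adjusted p = 0.0376). The summed signal of these 8 overlapped (31659 to 35715 in knockout pools and 31140 to 36237 in control pools), and Postn, the brightest, changed by -0.10 (SE 0.082). No marker of endothelium (8), smooth muscle (4), macrophages (5), red cells (5) or skeletal muscle (3) passed. Whether the Tcf21 difference bears on the set was not tested. Fewer muscle cells and less of these RNAs per cell cannot be told apart in whole hearts. Some pools had high signals of markers of other organs, and where that RNA came from was not tested. The summed signal of 4 liver markers (Alb, Afp, Ttr and Apoa1) was 26726 and 22094 in knockout replicates 4 and 5, against 524 to 2640 in the other knockout pools and 629 to 7512 in the control pools. Sftpc, a marker of lung epithelium, had a log2 signal of 7.08 in knockout replicate 3 and of 2.65 to 2.83 in all others. Of the other lung markers, Epcam was at 8.21 in that pool and at 2.75 to 5.81 in the rest. Nkx2-1 did not stand out there, at 1.57 against 1.49 to 1.57 in the rest. Alb was at 7.39 and 4.87 in knockout replicates 4 and 5, against 2.29 to 3.004 in the other knockout pools and 2.26 to 5.04 in the control pools. Myog, a marker of skeletal muscle, was at 7.02 in control replicate 3 and at 3.38 to 5.03 in all other pools. Myod1, of the same marker list, stayed at 2.20 to 2.36 in all pools. The array has 3 control probe sets for 18S RNA, which read carry-over of ribosomal RNA into the labelled material and not the amount of ribosomes. The 5′ one was at 7.84 to 8.57 in knockout pools and at 8.06 to 11.45 in control pools (exact two-sided permutation p = 0.0238, n = 5 each). The middle one averaged 7.99 ± 0.65 in knockout pools and 8.95 ± 0.84 in control pools, and the 3′ one 8.38 ± 0.34 and 9.16 ± 1.25 (SD, exact two-sided permutation p = 0.0794 and 0.222, n = 5 each). Of the 3 probe sets only the 5′ one thus differed at the 0.05 threshold, before any adjustment for testing 3. Array controls for Gapdh and beta-actin were also lower in knockout pools. The 3′ ones averaged 15.61 ± 0.05 and 15.62 ± 0.11, against 15.76 ± 0.04 and 15.85 ± 0.02 in control pools (SD, exact two-sided permutation p = 0.00794 each, n = 5 each). Their 3′ minus 5′ differences did not pass (exact two-sided permutation p = 0.0952 and 0.222). Neither did controls for pyruvate carboxylase and the transferrin receptor. How far any carry-over of other organs or of ribosomal RNA contributes to the results below was not tested, apart from the fits without the pools concerned. Signals on these arrays compare pools for one probe set and say nothing of the relative amounts of different genes.

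The shift over the whole set was small and upward. Log2 changes are knockout minus control, and 37 of the 47 genes had a positive one and 10 a negative one. A positive change was seen in 78.7% of the set and in 60.5% of all 18193 genes. The median log2 change was 0.12 in the set and 0.025 over all genes, and single changes ran from -0.21 (Nop53) to 0.51 (Rrp12). At an adjusted p of 0.05 in limma over all genes, 4 of the 47 rose, which is 8.51% of the set against 1.63% of all genes. None of the 47 fell, against 0.945% of all genes, and in either direction 2.58% of all genes passed. The 4 were Utp23, Utp3, Rrp12 and Polr1e. These shares are over all genes, including those with low signal. With only genes at or above the median signal kept, 475 of the genes kept rose. Of the set, 45 genes stayed and 5 of them rose. The share over all genes kept was thus larger than the 1.63% without that filter. Before adjustment, 14 of the 47 (29.8%) had a limma p under 0.05, against 20.6% of all genes. Of these 14, 13 were higher (13.2% of all genes were) and Nop53 was lower (7.48% of all genes were). Groups that did not overlap were seen for 6 of the 47, or 12.8%, against 5.79% of all genes. All 6 were higher, as were 3.86% of all genes, and they were the 4 called genes, Rrp15 and Imp3.

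**Figure D1:**
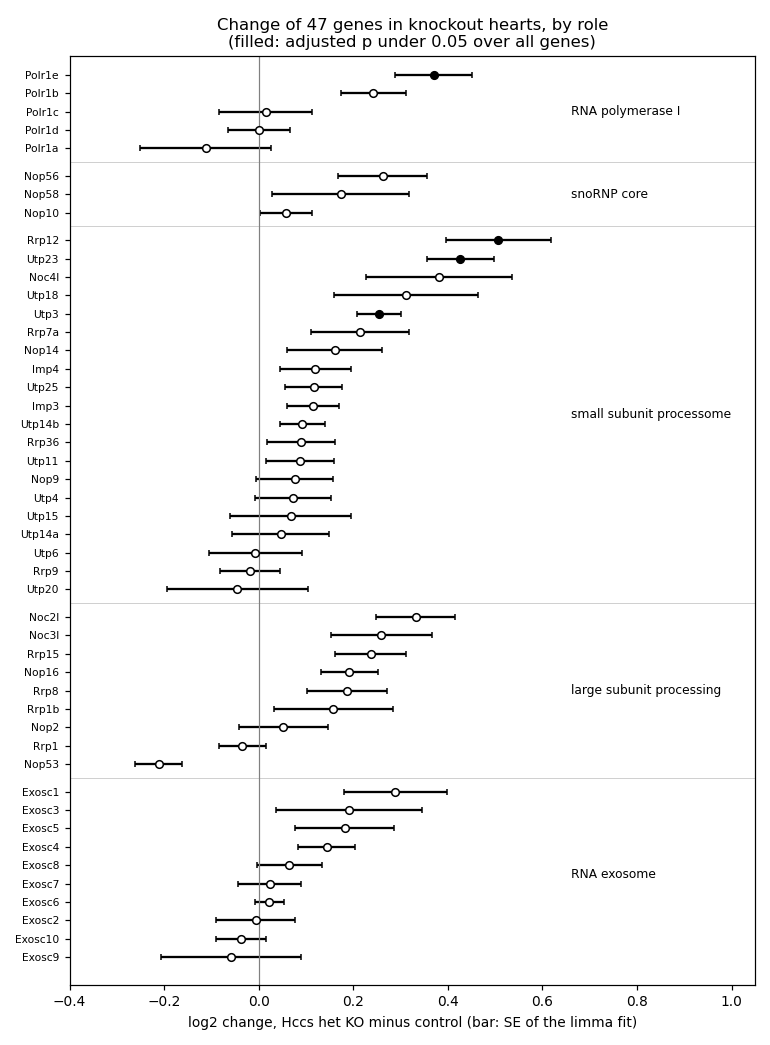
Log2 change (knockout minus control, x axis) of each of the 47 genes, grouped by role from top to bottom, with the SE of the limma fit as bars. Filled points are Polr1e, Rrp12, Utp23 and Utp3, which passed an adjusted p of 0.05 over all genes; all other points are open, and Nop53 lies farthest to the left at -0.21.

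The 4 calls had adjusted p between 0.0235 and 0.0466 in limma. With the adjustment over every probe set instead of 1 for each gene, Utp23 and Utp3 passed (limma adjusted p = 0.0271 and 0.0340), and Polr1e and Rrp12 did not (0.0544 and 0.0545). With each of the 10 arrays left out in turn, Utp23 passed in 5 fits, Utp3 in 3, Rrp12 in 2 and Polr1e in 1, and none of the 4 changed direction. No gene of the set passed without knockout replicate 2, 3 or 4 or without control replicate 1 or 4. Utp23 alone passed without knockout replicate 5, and 2 genes passed without control replicate 2, 3 or 5. Without knockout replicate 1, 7 genes passed: the same 4, Noc2l and Noc4l in the higher direction, and Nop53 in the lower. No gene of the set passed without both arrays numbered 3, where 30 genes passed over all genes. None passed without knockout replicates 4 and 5, the pools with high liver markers, where 14 genes passed over all genes. Without replicates 4 and 5 the median change of the set was 0.12 and 38 genes were positive, while without both arrays numbered 3 the median was 0.059 and 33 were positive.

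Averaged over the 47 genes, each pool's deviation from the mean of all pools was 0.035, 0.039, 0.14, 0.028 and 0.077 log2 units in knockout replicates 1 to 5. It was -0.071, -0.079, -0.13, -0.062 and 0.018 in control replicates 1 to 5. The pools of the genotypes did not overlap, but control replicate 5 lay just below knockout replicate 4. Over all 18193 genes the same mean ran from -0.012 to 0.023 in knockout pools and from -0.028 to 0.013 in control pools. The arrays numbered 3 lay at opposite ends. In knockout replicate 3, the pool with high Sftpc and Epcam, 36 of the 47 genes were above their own mean. In control replicate 3, the pool with high Myog, only 10 were. In control replicate 5, which had the highest 18S signal, 30 of the 47 were above their own mean, as many as in knockout replicate 2.

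**Figure D2:**
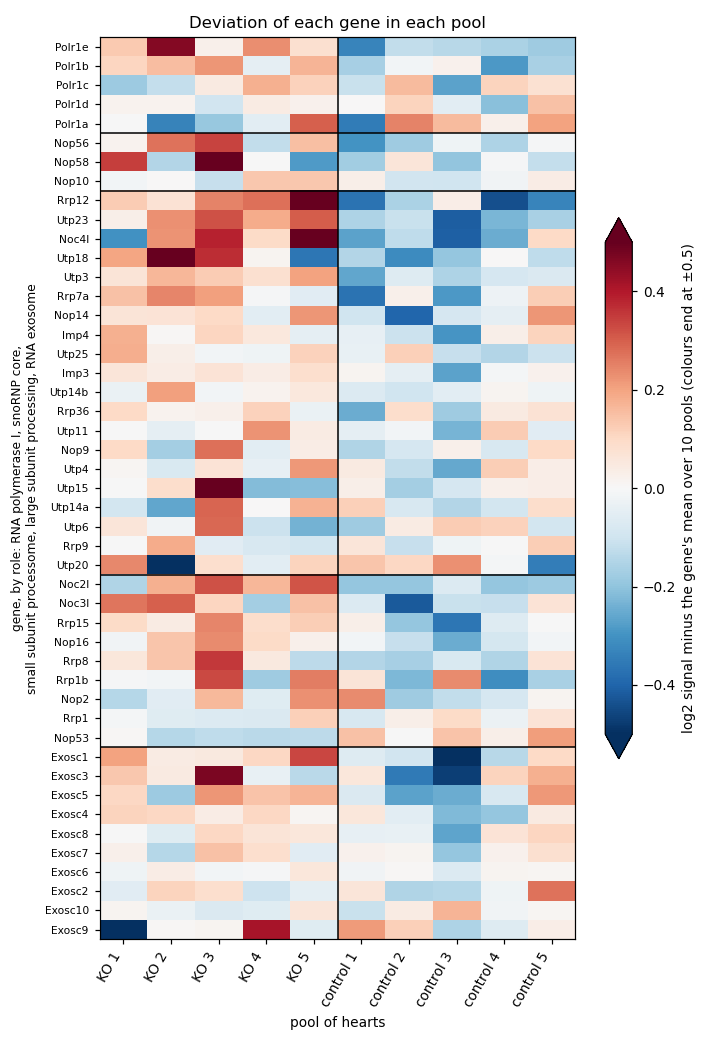
Deviation of the log2 signal of each of the 47 genes from its mean over the 10 pools, with knockout pools left of control pools and genes grouped by role. Red (higher) is commonest in knockout replicate 3 and blue (lower) in control replicate 3, where 36 and 10 of the 47 genes lay above their own mean.

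Among the RNA polymerase I subunits, 1 of 5 rose and none fell, with a median log2 change of 0.015. Polr1e encodes the subunit known as PAF53, which with Cd3eap forms a dimer on the polymerase that helps it start and extend transcripts. Its log2 signal was 9.84, 10.17, 9.74, 9.95 and 9.79 in knockout replicates 1 to 5, against 9.38, 9.59, 9.58, 9.56 and 9.53 in control replicates 1 to 5. Every knockout pool was above every control pool, and the fold change was 1.29 (log2 change 0.37, SE 0.081, limma adjusted p = 0.0466). A second, dimmer Polr1e probe set changed by 0.30. Adjusted over every probe set with a single symbol in place of 1 for each gene, neither passed in limma (adjusted p = 0.0544 for the brighter and 0.103 for the dimmer).

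Polr1b, which forms the active centre together with Polr1a, had log2 signals of 7.87, 7.92, 7.98, 7.72 and 7.93 in knockout pools and of 7.60, 7.75, 7.78, 7.48 and 7.60 in control pools. Knockout replicate 4 lay among the controls and the other 4 knockout pools above them (log2 change 0.24, SE 0.069, limma adjusted p = 0.0973). Polr1d, a subunit shared with RNA polymerase III, was at 11.77, 11.77, 11.66, 11.80 and 11.78 in knockout pools and at 11.76, 11.87, 11.70, 11.55 and 11.90 in control pools. The knockout pools lay inside the range of the control pools, and the 95% confidence interval of the difference was -0.15 to 0.15. Polr1c, also shared with RNA polymerase III, and Polr1a, the largest subunit, had log2 changes of 0.015 (SE 0.098) and -0.11 (SE 0.14). Of the subunits outside the set by their older symbols, Twistnb had a log2 change of 0.29, Znrd1 of 0.071 and Cd3eap, the partner of Polr1e, of -0.15, and none of them passed (limma adjusted p = 0.0967, 0.63 and 0.618).

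**Figure D3:**
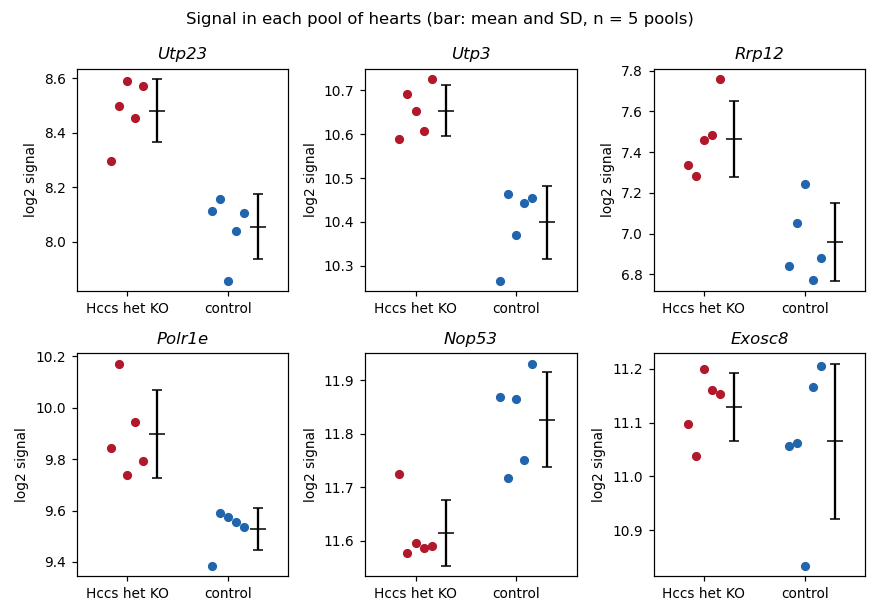
Log2 signal (y axis, its own range in each panel) of 6 genes in each pool, knockout left and control right, with the mean and SD of the 5 pools beside them. The genotypes do not overlap for Utp23, Utp3, Rrp12 and Polr1e, 4 of 5 knockout pools lie below all controls for Nop53, and the ranges overlap for Exosc8.

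The snoRNP core was measured by 3 genes, all positive and none past the threshold. Nop56 and Nop58 are the paired scaffold proteins of the box C/D snoRNPs, which guide methylation of ribosomal RNA, and Nop10 belongs to the H/ACA snoRNPs, which guide the change of uridine to pseudouridine. The log2 signal of Nop56 was 11.55, 11.80, 11.87, 11.41 and 11.68 in knockout pools, against 11.23, 11.36, 11.51, 11.38 and 11.53 in control pools. Knockout replicate 4 lay among the controls (log2 change 0.26, SE 0.094, limma adjusted p = 0.161), and a second Nop56 probe set changed by 0.31 (adjusted p = 0.096 over every probe set). Nop58 had a log2 change of 0.17 (SE 0.15). Nop10 was at 12.67, 12.68, 12.57, 12.81 and 12.81 in knockout pools and at 12.71, 12.59, 12.58, 12.66 and 12.72 in control pools, with the ranges overlapping (log2 change 0.058, SE 0.056).

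Factors of the small subunit gave 3 of the 4 calls. Of 20 genes 3 rose, none fell and 17 did not pass; 17 had a positive change, and the median log2 change was 0.10. Rrp12 is a repeat protein that in yeast helps carry the small subunit precursor out of the nucleus. Its log2 signal was 7.34, 7.28, 7.46, 7.49 and 7.76 in knockout pools and 6.84, 7.05, 7.24, 6.77 and 6.88 in control pools. The groups did not overlap, although control replicate 3 came close to knockout replicate 2, and the fold change of 1.42 was the largest of the set (log2 change 0.51, SE 0.11, limma adjusted p = 0.0465).

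Utp23 in yeast is needed for the release of a small nucleolar RNA from the early precursor. Its log2 signal was 8.30, 8.50, 8.59, 8.45 and 8.57 in knockout pools and 8.11, 8.16, 7.86, 8.04 and 8.11 in control pools. All knockout pools were above all control pools, with control replicate 3 the lowest, and the fold change was 1.34 (log2 change 0.43, SE 0.071, limma adjusted p = 0.0235). A second Utp23 probe set changed by 0.45 and passed over every probe set (adjusted p = 0.0351), while 2 dimmer ones changed by 0.078 and 0.12 and did not. With the mean of its 4 probe sets the Utp23 change was 0.27 (adjusted p = 0.138), and with the most variable one 0.078 (adjusted p = 0.852).

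Utp3, a processome protein also named Sas10, had log2 signals of 10.59, 10.69, 10.65, 10.61 and 10.73 in knockout pools and of 10.27, 10.46, 10.37, 10.44 and 10.45 in control pools. The groups did not overlap and the spread within each was small (fold change 1.19, log2 change 0.25, SE 0.047, limma adjusted p = 0.0291). Utp3 has a single probe set here.

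Noc4l, the partner of Nop14, had the largest small subunit change among those that did not pass. Its log2 signal was 8.66, 9.19, 9.35, 9.06 and 9.51 in knockout pools and 8.69, 8.83, 8.55, 8.72 and 9.06 in control pools. Knockout replicates 1 and 4 lay among the controls (log2 change 0.38, SE 0.15, limma adjusted p = 0.206). Its 4 probe sets disagreed, with log2 changes of 0.38, -0.11, 0.45 and 0.10. Nop14 itself had a log2 change of 0.16 (SE 0.10).

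Utp11 was at 10.97, 10.93, 10.97, 11.20 and 11.01 in knockout pools and at 10.93, 10.96, 10.74, 11.10 and 10.91 in control pools, with overlapping ranges (log2 change 0.087, SE 0.072). Imp3, which joins U3 RNA to the precursor, changed by 0.12 (SE 0.055, limma adjusted p = 0.267), yet its pools did not overlap: 10.20 to 10.24 in knockout hearts and 9.89 to 10.18 in control hearts. Its partner Imp4 changed by 0.12 (SE 0.075). Among the others, Utp18 (0.31, SE 0.15) and Rrp7a (0.21, SE 0.10) had the larger changes, and Utp20, Rrp9 and Utp6 had small negative ones (-0.046, -0.018 and -0.0070). The remaining 10, which were Utp25, Utp14b, Rrp36, Nop9, Utp4, Utp15, Utp14a, Utp11, Imp4 and Nop14, ran from 0.046 to 0.16. Utp14b, which in mice is used mainly in the male germ line, had signals of 3.40 to 3.70 in all 10 pools, below or about at the array medians of 3.65 to 3.76.

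None of the 9 large subunit genes passed, while 7 were positive and their median log2 change was 0.19. Noc2l, which in yeast forms the Noc1-Noc2 and Noc2-Noc3 pairs and in mammals also binds p53, had the largest change. Its log2 signal was 8.15, 8.48, 8.62, 8.46 and 8.61 in knockout pools, against 8.11, 8.11, 8.23, 8.11 and 8.12 in control pools. Knockout replicate 1 lay among the controls and the other 4 above them (log2 change 0.33, SE 0.084, limma adjusted p = 0.0689). A second, dimmer Noc2l probe set pointed the other way (-0.31, adjusted p = 0.262 over every probe set), so the direction for this gene depends on the probe set. Its partner Noc3l had a log2 change of 0.26 (SE 0.11), and both of its probe sets gave that value.

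Nop53 was the only gene of the set with an unadjusted p under 0.05 in the lower direction. It encodes a nucleolar protein, also named PICT1, that in yeast docks the exosome on the large subunit precursor and in mammalian cells holds the ribosomal protein Rpl11 in the nucleolus. Its log2 signal was 11.72, 11.58, 11.60, 11.59 and 11.59 in knockout pools and 11.87, 11.72, 11.86, 11.75 and 11.93 in control pools. Knockout replicate 1 lay just above the lowest control and the other 4 knockout pools below all controls (fold 0.863, log2 change -0.21, SE 0.050, limma adjusted p = 0.0569). All 3 of its probe sets were negative (-0.21, -0.073 and -0.11). It passed after quantile normalization (adjusted p = 0.0465), with array weights (adjusted p = 0.0286) and without knockout replicate 1 (adjusted p = 0.0257), and over all alternatives its adjusted p ran from 0.0257 to 0.501.

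Rrp15 was higher in every knockout pool (9.21, 9.15, 9.36, 9.20 and 9.23) than in any control pool (9.14, 8.92, 8.75, 9.05 and 9.11), a difference of 0.24 on the log2 scale (SE 0.075, limma adjusted p = 0.128). Nop16, an assembly factor known as a Myc target, changed by 0.19 (SE 0.060, limma adjusted p = 0.126). Rrp8, in yeast a methyltransferase of the large subunit RNA, changed by 0.19 (SE 0.085). Nop2, which methylates a cytosine of that RNA, changed by 0.052 (SE 0.095). The paralogs Rrp1b and Rrp1 had log2 changes of 0.16 (SE 0.13) and -0.035 (SE 0.050).

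None of the 10 exosome genes passed. The median log2 change was 0.044, with 7 positive and 3 negative, and 2 of the 10 (Exosc1 and Exosc4) had an unadjusted p under 0.05, a share close to the 20.6% of all genes. Exosc1, a subunit of the cap through which RNA enters, was at 9.72, 9.56, 9.57, 9.63 and 9.86 in knockout pools and at 9.46, 9.43, 9.001, 9.38 and 9.62 in control pools. Control replicate 3 was the lowest and control replicate 5 lay among the knockouts (log2 change 0.29, SE 0.11, limma adjusted p = 0.177). The other cap subunits, Exosc3 and Exosc2, had log2 changes of 0.19 (SE 0.15) and -0.0063 (SE 0.084).

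The ring of the exosome is built from Exosc4 to Exosc9. Exosc8 was at 11.10, 11.04, 11.20, 11.16 and 11.15 in knockout pools and at 11.06, 11.06, 10.83, 11.17 and 11.21 in control pools, with the knockout pools inside the control range (log2 change 0.065, SE 0.068). Exosc4 had a log2 change of 0.14 (SE 0.060), Exosc5 of 0.18 (SE 0.10), Exosc7 of 0.023 (SE 0.067) and Exosc9 of -0.059 (SE 0.15). Exosc6 had signals of 2.10 to 2.23, well below the array medians, so nothing is read from it. Exosc10, the nuclear exonuclease that does much of the trimming of ribosomal RNA, changed by -0.038, with a 95% confidence interval of -0.16 to 0.079.

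**Figure D4:**
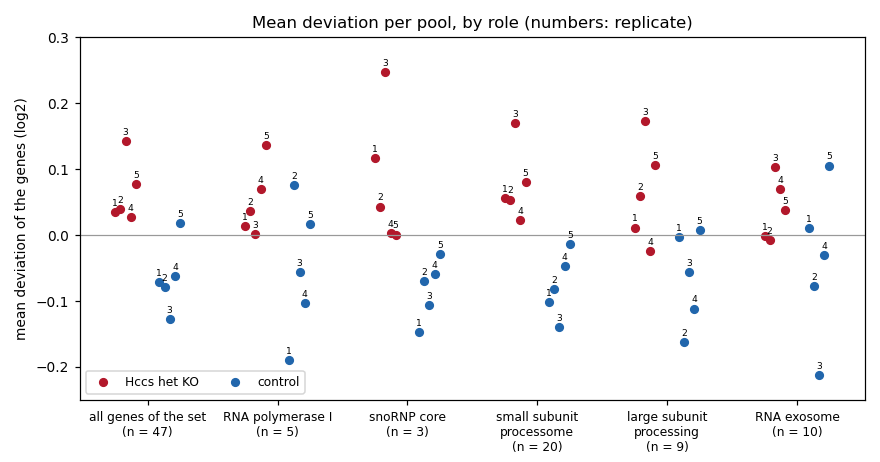
Mean deviation of the genes of each role from their means over the 10 pools (log2, y axis), with a point and replicate number for each pool, knockout left and control right. The genotypes are apart for the small subunit processome (0.023 to 0.17 against -0.14 to -0.014) and overlap for the exosome (-0.0069 to 0.10 against -0.21 to 0.11).

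Role by role, the pools of the genotypes were apart for 2 of the 5 and overlapped for 3. The mean deviation of the 20 small subunit genes was 0.023 to 0.17 in knockout pools and -0.14 to -0.014 in control pools, without overlap. For the 3 snoRNP genes it was 0.00080 to 0.25 in knockout pools and -0.15 to -0.029 in control pools, also without overlap. For the 9 large subunit genes it was -0.024 to 0.17 in knockout pools and -0.16 to 0.0081 in control pools, and for the exosome -0.0069 to 0.10 in knockout pools and -0.21 to 0.11 in control pools. For the 5 RNA polymerase I genes it was 0.0012 to 0.14 in knockout pools and -0.19 to 0.076 in control pools. In each role but RNA polymerase I, knockout replicate 3 was the highest of the knockout pools. A difference between the roles was not tested.

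Of the 47 genes 27 had more than 1 probe set, which gave 47 further probe sets. Of these, 30 had the sign of the brightest one, and 1, of Utp23, passed over every probe set. Leaving out the 13 whose mean signal lay below the highest array median, 23 of 34 had that sign. Over all 94 probe sets of the set, 73 were positive. Of all 18193 genes, 60.5% had a positive change, so probe sets can often share a sign without any link between them. Agreement beyond that was not tested.

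**Figure D5:**
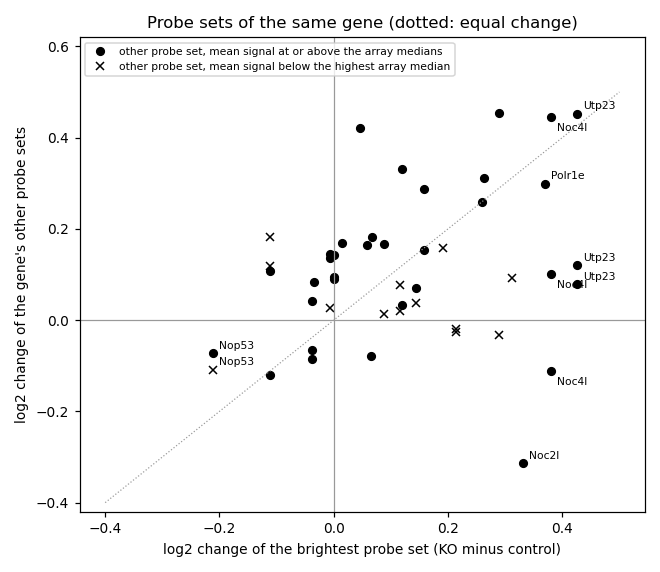
Log2 change of each further probe set (y axis) against that of the brightest probe set of the same gene (x axis), with crosses for the 13 with a mean signal below the highest array median. Utp23, Polr1e and Nop53 keep their sign in each of their probe sets, while 1 of Noc2l and 1 of Noc4l fall on the other side of 0.

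Genes of ribosome biogenesis, and exosome nucleases and cofactors, were also described from lists that hold none of the 47. These lists too were chosen with earlier results of these data known. Not every exosome cofactor listed acts in ribosome biogenesis. Of 137 measured genes in 5 lists, 6 rose, none fell and 131 did not pass. That is 4.38% higher, against 1.63% of all genes. Of the 137, 109 had a positive change, the median log2 change was 0.14, and 60 had an unadjusted p under 0.05, where 20.6% of all genes did. In the small subunit list 2 of 38 rose, Krr1 (log2 change 0.46, SE 0.092) and Pno1 (0.23, SE 0.049), both RNA-binding assembly factors of the small subunit. Its brightest member, the methyltransferase Emg1, had a log2 change of 0.072 (SE 0.071).

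In the large subunit list 3 of 52 rose. Ddx51, an RNA helicase, changed by 0.46 (SE 0.066, limma adjusted p = 0.0156), Nip7, which acts on large subunit precursors, by 0.37 (SE 0.077), and Npm1, an abundant nucleolar chaperone and the brightest of the list, by 0.19 (SE 0.042). Ncl, or nucleolin, the brightest of the list that did not pass, changed by 0.031 (SE 0.062, limma adjusted p = 0.797). Of 14 genes of snoRNP core and assembly Znhit6, a box C/D assembly factor, rose (0.19, SE 0.039), while Fbl, the methyltransferase of the same particles, changed by -0.13 (SE 0.057, limma adjusted p = 0.25). None of 17 RNA polymerase I transcription genes passed, and Polr2f, their brightest and a subunit shared by the nuclear RNA polymerases, changed by -0.012 (SE 0.076). Their median log2 change was 0.10, and 6 of the 17 had an unadjusted limma p under 0.05, where 20.6% of all genes did. Single changes ran from -0.41 (Ubtf, SE 0.16, limma adjusted p = 0.196) to 0.60 (Taf1d, SE 0.16, limma adjusted p = 0.0798). None of 16 exosome nucleases and cofactors passed either, with a median log2 change of 0.078, and Wdr61 of the Ski complex had 0.24 (SE 0.068, limma adjusted p = 0.0967).

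The genes of the set lie on 17 chromosomes and are short: the median span was 12.7 kb in the set and 20.2 kb over the 18142 array genes with a span in the RefSeq table. Of the 4 that rose, Utp3 spans 1629 bases, Utp23 7182, Polr1e 15671 and Rrp12 36671.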

How the data were processed

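Labelled RNA of 10 pools was hybridised to Affymetrix arrays. Values as deposited are log2 signals of probe sets; RMA and Partek are named in the submitters' processing notes, without versions. That they are on a log2 scale follows from their range (0.602 to 16.6). Changes are relative to other transcripts, and total RNA per heart cannot be seen. With 5 arrays a genotype, precision is limited by their number.

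Of 45101 probe sets, 34945 carried 1 symbol in the platform annotation; 64 controls, 932 with several symbols (1 of them with a symbol of the set) and 9160 with none were left out. Log2 changes, SE and two-sided p come from limma 3.58.1 in R 4.3.3 (lmFit, eBayes, genotype only, no filter on low values), adjusted by Benjamini-Hochberg over 18193 genes with a threshold of 0.05. Scripts were tested on simulated data. Single control values used exact permutation tests. Replicate numbers are labels: same-numbered arrays did not deviate together (r from -0.091 to 0.077). Whether pools came from separate litters is not stated, so p-values measure the spread between pools.

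The set, its roles and the lists were chosen with earlier results of these data known. Pool values are given for genes past the threshold and, for each role, the brightest gene and the gene with the largest change that did not pass; Imp3 and Rrp15 were added after their values were seen. From each list up to 4 genes past the threshold and the brightest other are named; further names were chosen after their values were seen. Alternatives were a replicate block, quantile normalization, median centring, filters on low values, other probe sets for a gene, eBayes with trend and robust, array weights, the arrays numbered 3 left out, each array left out and, added after seeing the data, knockout replicates 4 and 5 left out. Figures used matplotlib 3.10.9 (Python 3.11.15).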

Additional observations from a re-analysis of the deposited data

Results flagged for a closer look

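In 98 groups of 5 pools (47 genes, Hccs and the 18S control, each genotype), the highest or lowest pool stood far from the others 7 times, and chance alone flags about 1 in 20 groups. In knockout hearts, Exosc5 was low in replicate 2 (7.87, the others 8.16 to 8.27), Polr1d was low in replicate 3 (11.66, the others 11.77 to 11.80), and Nop53 was high in replicate 1 (11.72, the others 11.58 to 11.60). In control hearts, replicate 3 was low for Exosc7 (10.84, the others 11.05 to 11.12) and for Imp3 (9.89, the others 10.11 to 10.18) and high for Noc2l (8.23, the others 8.10 to 8.12). Control replicate 1 was low for Polr1e (9.38, the others 9.53 to 9.59). Control replicate 3 thus held 3 of the 7 flags. For Nop53 the knockout pool that stood apart was the nearest to the controls, and for Noc2l the control pool that stood apart was the nearest to the knockouts.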

How the results depend on the processing

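The 4 calls kept their direction under every alternative, while their number changed. All 4 passed with either filter on low values, with eBayes trend and robust, and with array weights. Noc2l also passed in the higher direction with the filter at the median level (limma adjusted p = 0.0400) and with array weights (limma adjusted p = 0.0294). Over all genes 469 passed; 759 did with the filter at the median level, 945 with array weights, 36 with the replicate block, 30 without both arrays numbered 3, and 14 without knockout replicates 4 and 5. With 1 array left out it was 105 to 1042, with 0 to 6 genes of the set higher and 0 to 1 lower. Genes of the set called higher numbered 1 with the mean of probe sets or the most variable one (Utp3 both times), and 0 with the replicate block, without both arrays numbered 3 and without knockout replicates 4 and 5. With quantile normalization 3 rose (not Polr1e), and with median centring 3 (not Utp3). Genes called lower numbered 1 (Nop53) with quantile normalization and with array weights. The median change of the set was 0.059 without both arrays numbered 3, and 0.090 to 0.12 with 1 array left out. The Hccs change was -0.55 with the replicate block (adjusted p = 0.0735) and -0.59 without both arrays numbered 3 (adjusted p = 0.0714); without knockout replicates 4 and 5 it was -0.42 (adjusted p = 0.0554). With 1 array left out it was -0.60 to -0.48 (adjusted p = 0.0136 to 0.0563). The same numbers share no label beyond the number, and the best match of a knockout array was its own number for 1 of 5. Fits that leave arrays out rest on fewer samples.

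Direction changed only for genes that did not pass. With quantile normalization the log2 change was -0.0083 for Polr1c. With median centring the log2 change was 0.0094 for Exosc2, 0.0154 for Polr1d and 0.0088 for Utp6. With the mean of probe sets the log2 change was 0.0104 for Exosc2, -0.0067 for Exosc8, 0.0351 for Polr1a, 0.082 for Polr1d, 0.0249 for Rrp1 and 0.0911 for Utp6. With the most variable probe set the log2 change was -0.0782 for Exosc8, -0.31 for Noc2l, 0.14 for Polr1d and 0.0843 for Rrp1. With array weights the log2 change was 0.0093 for Exosc9 and 0.0363 for Polr1d. Without both arrays numbered 3 the log2 change was 0.0132 for Exosc10, -0.0565 for Exosc7, -0.0108 for Exosc8, -0.006 for Nop2, -0.0605 for Polr1c, 0.0098 for Polr1d, -0.0515 for Utp14a and -0.0645 for Utp15. Without knockout replicates 4 and 5 the log2 change was 0.0431 for Exosc2, -0.0124 for Nop10, -0.0775 for Polr1c, 0.0338 for Rrp9 and 0.11 for Utp6. With 1 array left out it ran from -0.0451 to 0.0609 for Exosc2, -0.17 to 0.0642 for Exosc9, -0.14 to 0.0732 for Utp20, -0.0232 to 0.0607 for Exosc7, -0.0523 to 0.0362 for Polr1d, -0.0209 to 0.12 for Utp14a, -0.0517 to 0.13 for Utp15, -0.051 to 0.0617 for Polr1c, -0.0794 to 0.0517 for Utp6, -0.0669 to 0.011 for Rrp9 and -0.0706 to 0.0002 for Exosc10.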

Other observations

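A list of genes around p53 and ribosome assembly, and genes of cell division, were described beside the set. Rpl5 and Trp53 of the p53 list were not among the 18193 genes with a single-symbol probe set. Probe sets with several symbols were left out, so Rpl5 and Trp53 may still be on the array. Of 5 measured genes of the p53 list 1 rose: Cdkn1a, the p21 inhibitor of cyclin-dependent kinases, by 1.82-fold (9.13 ± 0.35 in knockout pools and 8.27 ± 0.24 in control pools, log2, SD, n = 5 each, limma adjusted p = 0.0396, with overlapping pools). Whether the Cdkn1a rise is tied to ribosome assembly was not tested. Mdm2, the ligase that degrades p53, had a log2 change of 0.46 (SE 0.29) and Rpl11, which binds Mdm2 when ribosome assembly is disturbed, of -0.040 (SE 0.037). In limma none of 9 cell division genes passed, with 3 at p under 0.05 before adjustment, and their median log2 change was -0.0095. Mki67 and Top2a had log2 changes of -0.38 (SE 0.16) and -0.21 (SE 0.076), Mcm2 of 0.14 (SE 0.059), and Pcna, the brightest, of -0.0095 (SE 0.057).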
